A study of Mus musculus with 3 samples.

Results

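Interferon-induced genes are the genes that cells switch on when interferon, a secreted alarm signal, binds its receptor. A set of 35 mouse genes of this kind was followed by symbol through 3 single-cell libraries of the femoral artery, and 34 of them had a row among the 32285 genes of the matrices (Mx1 had none under that symbol). They were taken as 2 lists, 22 measured type I-like genes (Isg15, the Ifit genes and others) and 12 gamma-like genes (guanylate-binding proteins, immunity-related GTPases, Cxcl9, Cxcl10 and Irf1). The libraries were Sham, from mice with a sham operation, and D2 and D7, from mice 2 days and 7 days after wire-induced injury of the femoral artery (FAI), in which a wire passed into the vessel strips its lining. All mice were WT (wild type), male and 8 weeks old, and live single cells of 6 mice, sorted with the dead-cell dye DAPI, were pooled into 1 Chromium Single Cell 3' v3 library per group. The strain, and the time at which Sham arteries were taken, are not given in the sources used here. With 1 library per group no difference could be tested, and every interval below, given as low to high after a ratio or share, is at 95% and covers counting error only, taking each transcript counted as independent.

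Type I interferons (the alpha and beta families) bind the IFNAR1 and IFNAR2 receptor and act through JAK1 and TYK2 on a complex with STAT2 and IRF9, which binds the interferon-stimulated response element (ISRE) of genes such as Isg15, the Ifit genes and Rsad2. Interferon gamma, made by T cells and natural killer cells, binds IFNGR1 and IFNGR2 and acts through JAK1 and JAK2 on the gamma-activated sequence (GAS) of genes such as Irf1, which in turn drives many guanylate-binding proteins. The separation is one of degree, since most genes of either list answer both kinds of interferon, and in injured vessels both leukocytes and wall cells can respond.

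After filtering, 7387 (Sham), 11000 (D2) and 10895 (D7) cells remained. Their median depth was 4102, 6628 and 6740 UMIs (unique molecular identifiers, 1 per captured transcript), and 43, 51 and 50 of the barcodes also occurred in another library. Clusters, made without the interferon-induced genes, were named from marker genes into 13 classes, written "-like" because they rest on transcripts alone. Fibroblast-like cells numbered 2047, 89 and 2931 in Sham, D2 and D7, endothelial-like 476, 87 and 386, smooth-muscle-like 196, 17 and 298, lymphatic-endothelial-like 323, 30 and 139, monocyte/macrophage-like 200, 4151 and 2381, neutrophil-like 148, 4509 and 1566, dendritic-like 419, 977 and 605, T/NK/ILC-like (T, natural killer and innate lymphoid) 505, 325 and 892 and B-like 282, 373 and 778. Adipocyte-like (87, 1 and 95), mast/basophil-like (75, 13 and 34), Schwann-like (50, 7 and 40) and plasmacytoid-dendritic-like cells (6, 33 and 50) were few. Unnamed clusters held 34.8%, 3.53% and 6.42% of cells, and a class enters a comparison between libraries with 50 or more of its cells each. Median UMIs per cell were 6696, 14607 and 12642 in fibroblast-like, 3475.5, 12815 and 5416 in endothelial-like, 11370, 12386 and 9906 in dendritic-like and 3989, 3810 and 3346.5 in neutrophil-like cells of Sham, D2 and D7. Free RNA, released by broken cells and caught in every droplet, was estimated from genes of other classes at 2.31, 3.92 and 6.02, 2.07, 1.32 and 4.97, 0.829, 1.87 and 2.3 and 2.56, 3.2 and 2.26 percent of their UMIs in the same order. Levels are UMIs summed over the cells of a class in a library and scaled to a total of 1000000 (CPM). The level of 1 gene is compared between classes and libraries, not the levels of different genes.

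The promoters of 27 of the 35 genes are in the RefSeq table of the mouse genome (build GRCm38), and those of 7 genes that carry the results below are shown to make the 2 kinds of element visible. Each is the 250 bases before a RefSeq start of the gene, 5' to 3' on the gene's own strand, with capitals at every match on either strand to the ISRE core, which is GAAA, any 2 bases and GAAA again, or to the GAS core TTCNNNGAA. Where a gene has several starts in the table, the one with most matches is shown. In the counts below a gene holds a core if any of its starts does.
Isg15 chr4:156200819-156201068 (- strand): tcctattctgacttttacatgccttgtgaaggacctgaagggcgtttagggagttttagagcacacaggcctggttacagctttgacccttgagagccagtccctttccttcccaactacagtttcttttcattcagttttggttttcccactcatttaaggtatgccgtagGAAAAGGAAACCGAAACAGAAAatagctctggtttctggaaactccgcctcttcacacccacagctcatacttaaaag
Ifit3 chr19:34583279-34583528 (+ strand): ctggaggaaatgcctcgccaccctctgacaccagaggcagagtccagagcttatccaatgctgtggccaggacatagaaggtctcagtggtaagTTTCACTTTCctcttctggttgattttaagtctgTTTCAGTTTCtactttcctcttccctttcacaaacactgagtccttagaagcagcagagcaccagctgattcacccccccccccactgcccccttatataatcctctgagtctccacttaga
Rsad2 chr12:26456453-26456702 (- strand): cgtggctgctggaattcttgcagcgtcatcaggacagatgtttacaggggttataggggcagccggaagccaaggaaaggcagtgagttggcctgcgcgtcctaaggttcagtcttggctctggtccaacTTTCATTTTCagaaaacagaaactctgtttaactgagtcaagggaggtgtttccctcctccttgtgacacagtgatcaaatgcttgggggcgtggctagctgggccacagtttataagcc
Cxcl10 chr5:92348890-92349139 (- strand): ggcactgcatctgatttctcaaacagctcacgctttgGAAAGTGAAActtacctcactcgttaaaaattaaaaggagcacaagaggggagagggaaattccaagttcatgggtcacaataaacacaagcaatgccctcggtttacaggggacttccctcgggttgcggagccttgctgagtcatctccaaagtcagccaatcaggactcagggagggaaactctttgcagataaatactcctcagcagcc
Gbp7 chr3:142530086-142530335 (+ strand): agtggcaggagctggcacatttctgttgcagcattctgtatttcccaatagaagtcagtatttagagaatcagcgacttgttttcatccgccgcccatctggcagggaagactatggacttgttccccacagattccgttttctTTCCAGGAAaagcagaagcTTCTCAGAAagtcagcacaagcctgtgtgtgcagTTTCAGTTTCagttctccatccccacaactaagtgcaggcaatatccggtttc
Igtp chr11:58199306-58199555 (+ strand): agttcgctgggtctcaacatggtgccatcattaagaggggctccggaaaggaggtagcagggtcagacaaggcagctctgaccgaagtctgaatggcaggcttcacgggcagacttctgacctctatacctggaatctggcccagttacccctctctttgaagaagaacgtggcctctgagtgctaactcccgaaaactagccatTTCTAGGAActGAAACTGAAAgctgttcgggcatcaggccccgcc
Irf1 chr11:53769764-53770013 (+ strand): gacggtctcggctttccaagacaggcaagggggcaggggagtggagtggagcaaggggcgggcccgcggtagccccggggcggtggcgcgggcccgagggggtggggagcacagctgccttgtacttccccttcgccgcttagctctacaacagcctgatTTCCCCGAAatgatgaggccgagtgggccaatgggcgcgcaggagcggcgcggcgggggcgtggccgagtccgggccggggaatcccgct
In Isg15 the capitals are 3 overlapping ISRE cores whose first bases lie 78, 72 and 66 bases before the start. Ifit3 has 2 ISRE cores (156 and 122 bases before), Rsad2 has 1 (120 bases) and Cxcl10 has 1 (213 bases). Gbp7 has 1 ISRE core (53 bases) after 2 GAS cores (106 and 87 bases), Igtp has a GAS core (45 bases) just before an ISRE core (34 bases), and Irf1 has only a GAS core (90 bases). Searched over 250 bases before to 50 after the start, the ISRE core was in 11 of 17 type I-like promoters (64.7%) and 7 of 10 gamma-like ones (70.0%), against 3.99% of the 27025 genes of the table. The GAS core was in 4 of 17 (23.5%) and 4 of 10 (40.0%), against 9.55% of all genes. So the ISRE core was common in both lists, and 6 of the 27 genes held both cores. A match is a run of letters and no measured binding site.

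Several members are neighbours and copies of each other. On GRCm38 (GENCODE vM21) Ifit2, Ifit3, Ifit3b and Ifit1 lie in a row between 34550694 and 34650009 on chromosome 19, Gbp5, Gbp7, Gbp3 and Gbp2 between 142493978 and 142638008 on chromosome 3, and Cxcl9 and Cxcl10 between 92321347 and 92348889 on chromosome 5. Oas2, Oas3 and Oas1a lie between 120730333 and 120907521 on the same chromosome 5. Ifit3 and Ifit3b each hold a pair of ISRE cores, at 156 and 122 bases in the former and at 188 and 154 bases before the start in the latter. How reads shared by near-identical copies were assigned is not given in the sources used here, so the split between Ifit3 and Ifit3b and within the Oas and Gbp families is uncertain.

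The 2 lists had different patterns across the cell classes. Gamma-like transcripts were highest in endothelial-like and fibroblast-like cells of Sham and lower after injury in fibroblast-like, endothelial-like and dendritic-like cells, whereas in neutrophil-like cells they were highest at D7. Type I-like transcripts were lower beside the gamma-like ones in fibroblast-like and endothelial-like cells. They were higher after injury in dendritic-like and T/NK/ILC-like cells and, at D7, in neutrophil-like cells. In fibroblast-like cells the summed gamma-like level was 1005, 137 and 348 CPM (Sham, then D2, then D7), and in endothelial-like cells 1082, 519.8 and 487. It was 663, 166 and 253 in dendritic-like, 636, 353 and 398 in monocyte/macrophage-like and 277, 382 and 746 in neutrophil-like cells. T/NK/ILC-like cells (434, 342 and 453) and B-like cells (179, 201 and 189) lay within a narrower range.

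Ifitm3, Bst2 and Ifi27l2a hold most of the type I-like UMIs of each whole library, so the list was summed with and without them. They did not hold most in neutrophil-like cells of D7, where 9114 of 15404 UMIs were of the other genes. The same was true of mast/basophil-like (153 of 222) and adipocyte-like cells (61 of 109) of Sham. Without them the type I-like level was 408, 128 and 262 CPM in fibroblast-like cells (Sham, D2, D7), 782, 521 and 440.02 in endothelial-like, 809.8, 802 and 658 in monocyte/macrophage-like, 794, 724 and 1485 in neutrophil-like and 378, 602 and 576 in dendritic-like cells. It was 190.4, 268 and 313 in T/NK/ILC-like and 189.7, 206 and 259 in B-like cells. With all 22 genes the sums were 2724, 1711 and 1589 in fibroblast-like, 2859, 2745 and 2751 in endothelial-like, 5524, 3726 and 3042 in monocyte/macrophage-like, 1734, 1604 and 2509.6 in neutrophil-like and 1938, 4062 and 3162 in dendritic-like cells. In the monocyte/macrophage-like class the sum depended on these 3 genes: with them D2 was at 0.675 (0.659 to 0.690) of Sham, and without them at 0.990 (0.934 to 1.05). It depended on the cells of the class too. With every cluster placed in its best-scoring class, which adds the unnamed cluster 10 and raises the Sham cells from 200 to 960, the sums were 3662, 3729 and 3084 CPM with the 3 genes and 888, 797 and 669 without, so D2 was then above Sham with them and below it without.

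**Figure D1:**
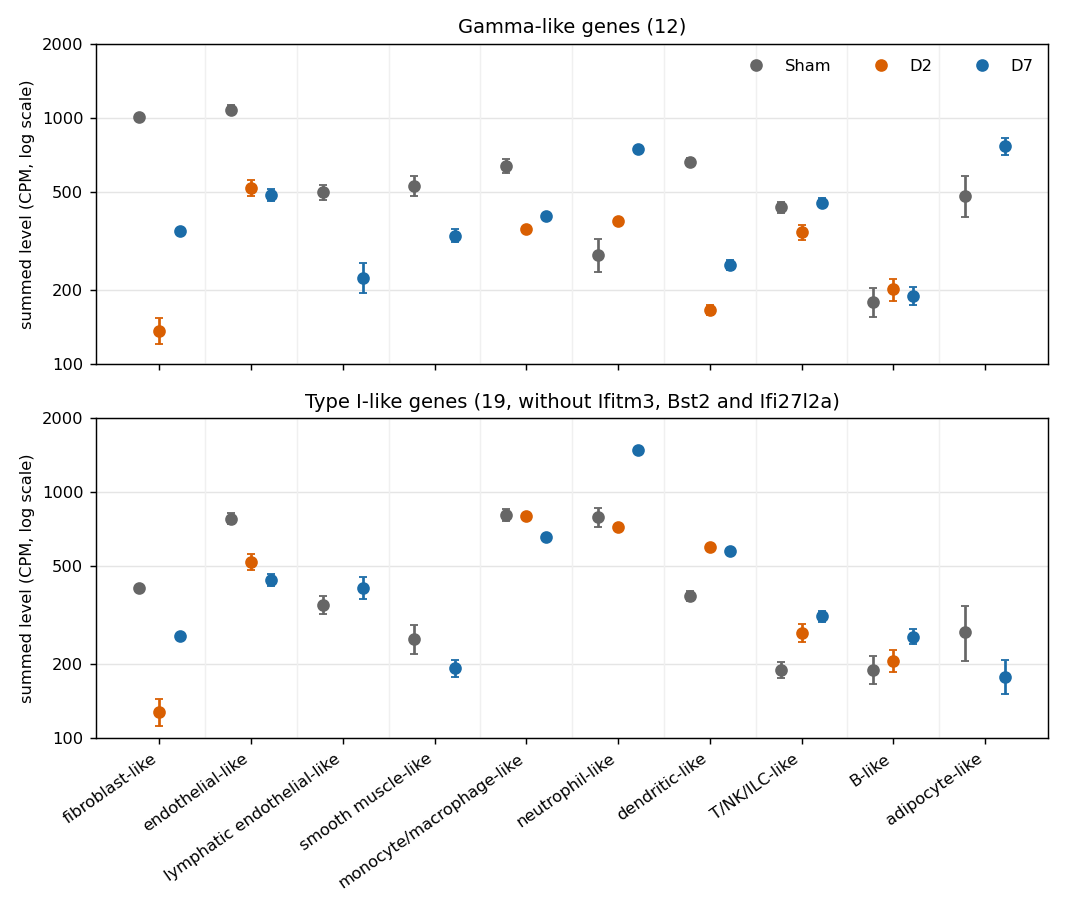
Summed level in CPM (log axis) of the 12 gamma-like genes (upper panel) and of 19 type I-like genes (lower panel) in 10 cell classes. Points are libraries with at least 50 cells of the class (grey Sham, orange D2, blue D7) and bars are exact Poisson intervals for counting error. Gamma-like points are highest in Sham in fibroblast-like (1005 CPM) and endothelial-like cells (1082 CPM) and highest at D7 in neutrophil-like cells (746 CPM).

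Isg15, the ubiquitin-like protein that is attached to other proteins during the interferon response, was present in every class. In Sham, D2 and D7 it was at 54.7, 9.32 and 58.1 CPM in fibroblast-like and 86.4, 69.98 and 69.7 in endothelial-like cells. Isg15 was at 138, 92.5 and 132 in monocyte/macrophage-like, 185, 140.4 and 410.4 in neutrophil-like and 55.8, 101 and 152 in dendritic-like cells. It was at 29.3, 26.3 and 47.1 in T/NK/ILC-like and 14.1, 13.6 and 41.4 in B-like cells. For Sham and D7 alone, Isg15 was at 58.2 and 45.3 in smooth-muscle-like, 61.04 and 97 in lymphatic-endothelial-like and 8.83 and 10.5 in adipocyte-like cells. Neutrophil-like cells of D7 were highest, at 2.92 (2.77 to 3.09) of their D2 level, and fibroblast-like cells of D2 were at 0.171 (0.101 to 0.271) of Sham. Usp18, which removes ISG15 and damps signalling at the type I receptor, was at 25.8, 2.59 and 4.73 in fibroblast-like, 10.7, 29.2 and 13.99 in dendritic-like, 17.4, 17.4 and 26.4 in neutrophil-like, 21.6, 21.8 and 14.1 in monocyte/macrophage-like and 18.9, 21.4 and 8.94 CPM in endothelial-like cells. In fibroblast-like cells Usp18 was low at D7 (0.183 [0.153 to 0.219] of Sham) while Isg15 was near its Sham level (1.06 [0.979 to 1.15]).

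The IFIT proteins bind viral RNA and hold back its translation. Ifit1 was at 42.6, 0.518 and 21.02 CPM in fibroblast-like and 30.1, 40.7 and 11.9 in endothelial-like cells. Ifit1 was at 16.8, 33.3 and 15.9 in monocyte/macrophage-like, 7.91, 47.1 and 90.4 in neutrophil-like and 7.41, 19.9 and 11.4 in dendritic-like cells, and at 2.21, 8.33 and 10.3 in T/NK/ILC-like and 1.66, 1.09 and 6.74 in B-like cells. The Sham and D7 levels of Ifit1 were 24.5 and 5.04 in smooth-muscle-like, 14.5 and 31.6 in lymphatic-endothelial-like and 4.42 and 2.33 in adipocyte-like cells. Ifit3 was at 17.9, 2.59 and 16.6 in fibroblast-like and 31.7, 34.99 and 9.69 in endothelial-like cells. Ifit3 was at 16.1, 26.2 and 21.1 in monocyte/macrophage-like, 14.2, 31.1 and 76.7 in neutrophil-like, 5.01, 15.4 and 12.5 in dendritic-like, 2.21, 3.95 and 7.82 in T/NK/ILC-like and 1.66, 18.5 and 9.63 CPM in B-like cells. Both genes were thus lower at D2 in fibroblast-like cells and highest at D7 in neutrophil-like cells, where D7 over D2 was 1.92 (1.73 to 2.13) for Ifit1 and 2.47 (2.19 to 2.79) for Ifit3. In Sham and D7 Ifit3 was at 24.5 and 3.26 in smooth-muscle-like, 11.5 and 5.45 in lymphatic-endothelial-like and 8.83 and 1.16 in adipocyte-like cells. In neutrophil-like cells Ifit2 was at 4.75, 9.52 and 24.1 and Ifit3b at 6.33, 16.6 and 38.3 CPM, again highest at D7. In fibroblast-like cells Ifit2 was at 20.4, 2.59 and 5.44.

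The OAS enzymes sense double-stranded RNA and trigger RNA decay, and the Oas members were highest in myeloid classes here. Oasl2 was at 147, 109 and 152 CPM in neutrophil-like, 55.1, 71.3 and 45.6 in monocyte/macrophage-like, 14.4, 39.3 and 20.2 in dendritic-like, 24.9, 7.25 and 17.6 in fibroblast-like and 25.04, 39.99 and 29.4 in endothelial-like cells. Oas3 was at 50.6, 26.2 and 45.1 in neutrophil-like and 29.3, 19.3 and 18.4 in monocyte/macrophage-like cells but at 0.276, 1.55 and 0.418 in fibroblast-like and 0, 0 and 1.86 in endothelial-like cells, which is close to no UMI. Oas2 was at 39.6, 29.01 and 35.2 in neutrophil-like, 13.96, 34.4 and 21.2 in monocyte/macrophage-like and 3.49, 20.3 and 12.5 in dendritic-like cells. Oas1a was at 4.75, 7.44 and 10.1 in neutrophil-like, 42.6, 35.5 and 25.02 in monocyte/macrophage-like and 12.6, 23.5 and 18.1 CPM in dendritic-like cells. In neutrophil-like cells D7 over Sham was 0.890 (0.587 to 1.41) for Oas2, 0.891 (0.617 to 1.33) for Oas3 and 1.03 (0.833 to 1.29) for Oasl2, intervals that include 1, unlike those of Ifit1 (11.4 [4.87 to 35.3]) and Ifit3 (5.39 [2.81 to 11.9]).

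Rsad2 encodes viperin, an enzyme that makes a chain-terminating nucleotide, and had its highest Sham level in endothelial-like cells. It was at 163, 52.8 and 39.5 CPM in endothelial-like, 55.4, 86 and 241 in neutrophil-like, 21.6, 43.3 and 33.5 in monocyte/macrophage-like, 7.19, 11.9 and 11.8 in dendritic-like and 2.35, 0.518 and 2.01 in fibroblast-like cells. It was at 1.11, 4.82 and 4.39 in T/NK/ILC-like and 2.48, 16.3 and 10.6 in B-like cells. For Sham and D7 alone, Rsad2 was at 3.49 and 1.19 in smooth-muscle-like, 3.63 and 2.18 in lymphatic-endothelial-like and 0 and 1.16 in adipocyte-like cells. The order of Sham and D7 was opposite in endothelial-like cells (0.242 [0.193 to 0.303]) and neutrophil-like cells (4.36 [3.12 to 6.28]). In endothelial-like cells of Sham, each thinned to 1000 UMIs as described below, 0 of 15 cells with an Ifit3 UMI had an Rsad2 UMI, against 12.7% of the 411 without, which 15 cells are too few to tell apart. In neutrophil-like cells of D7 the shares were 64.6% of 48 and 6.19% of 1503.

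Ifitm3, which sits in endosome membranes and blocks viral fusion, and Bst2 (tetherin), which holds budding virus at the cell surface, are also expressed without interferon. Ifitm3 was at 1539, 1400.2 and 1057 CPM in fibroblast-like and 1550.4, 1823 and 1784 in endothelial-like cells. Ifitm3 was at 3266, 1713 and 1427 in monocyte/macrophage-like, 596, 523 and 706 in neutrophil-like and 961, 2657 and 1920.1 in dendritic-like cells. It was at 90.1, 179 and 324 in T/NK/ILC-like and 51.3, 86.6 and 224 in B-like cells. The Sham and D7 levels of Ifitm3 were 939.7 and 1504 in smooth-muscle-like, 1827 and 3018 in lymphatic-endothelial-like and 181 and 564 in adipocyte-like cells. Ifitm3 was lower after injury in monocyte/macrophage-like cells and higher in dendritic-like, T/NK/ILC-like and B-like cells. The estimated share of free RNA was 4.27, 2.87 and 5.75 percent in T/NK/ILC-like and 2.6, 2.66 and 11.3 percent in B-like cells of Sham, D2 and D7. With it subtracted, Ifitm3 was at 38.7, 141 and 275 CPM in T/NK/ILC-like and 19.9, 48.5 and 109 in B-like cells, in the same order. Bst2 was at 429, 376 and 459 in endothelial-like, 163, 257 and 255 in monocyte/macrophage-like, 139, 229 and 261 in dendritic-like, 138, 94.8 and 142 in fibroblast-like and 3.16, 30.2 and 47.2 CPM in neutrophil-like cells.

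Ifi27l2a, of the ISG12 family of small membrane proteins, had one of the lowest ratios of D7 to Sham in fibroblast-like cells (0.200), where it was still among the more abundant members. Its level was 639, 87.5 and 128 CPM in fibroblast-like and 97.1, 24.3 and 68.6 in endothelial-like cells. Ifi27l2a was at 1286, 954 and 702 in monocyte/macrophage-like, 340.2, 327 and 272 in neutrophil-like, 460.4, 574 and 405 in dendritic-like and 485, 226 and 249 in B-like cells. Ifi44, a cytoplasmic protein induced by viral infection, was highest in the endothelial classes, at 37.8, 31.4 and 42.5 CPM in endothelial-like cells of Sham, D2 and D7 and 21.2 and 42.5 in lymphatic-endothelial-like cells of Sham and D7, against 0.483, 0 and 1.05 in fibroblast-like and 0, 0.0496 and 0.163 in neutrophil-like cells. Rtp4, a chaperone of membrane receptors with antiviral action, was at 111, 65.8 and 113 in neutrophil-like, 45.4, 79.9 and 51.9 in monocyte/macrophage-like, 13.5, 38.5 and 22.9 in dendritic-like and 26.8, 11.4 and 17.9 CPM in fibroblast-like cells. Xaf1, a pro-apoptotic factor that antagonises XIAP, was highest in endothelial-like cells of Sham (93.5, 52.1 and 43.2) and was at 36.4, 20.2 and 25.9 in fibroblast-like and 17.4, 34.8 and 30.1 in dendritic-like cells.

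In dendritic-like cells 6 of 15 type I-like genes were higher at D2 by the rule given below, against 6.98% of all genes (7.01% lower). Among the sensors, Ifih1 (MDA5, a detector of long double-stranded RNA) was not one of the 6. It was highest in dendritic-like cells of Sham and lower there at D2. It was at 95.2, 50.3 and 69.1 CPM in dendritic-like, 71.2, 64.3 and 65.2 in monocyte/macrophage-like, 53.8, 35.5 and 62.9 in neutrophil-like, 56.2, 20.7 and 32.4 in endothelial-like and 37.8, 9.84 and 17.5 in fibroblast-like cells, and D2 was 0.529 (0.467 to 0.599) of Sham in dendritic-like and 0.260 (0.155 to 0.410) in fibroblast-like cells. Zbp1, which senses Z-form nucleic acid and starts necroptosis, was at 106, 55.5 and 56.2 in monocyte/macrophage-like, 28.1, 35.5 and 43.8 in dendritic-like, 4.75, 9.03 and 25.3 in neutrophil-like, 33.7, 40.3 and 43.5 in T/NK/ILC-like and 20.9, 13.5 and 17.1 CPM in fibroblast-like cells.

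Of the factors that carry the type I signal to DNA, 3 are members. Irf7, which amplifies the response, was at 85.2, 65.1 and 45.02 CPM in monocyte/macrophage-like, 12.2, 40.8 and 50.02 in dendritic-like, 26.9, 31.2 and 47.9 in neutrophil-like, 25.6, 15.7 and 16.8 in endothelial-like and 19.1, 3.63 and 7.61 in fibroblast-like cells, 20.7, 18.4 and 25.9 in T/NK/ILC-like and 7.45, 16.3 and 16.4 in B-like cells. Stat2 was at 64.9, 36.4 and 33.2 in endothelial-like, 47.9, 48.2 and 38.2 in dendritic-like, 42.4, 21.8 and 22.1 in fibroblast-like, 39.1, 37.4 and 24.4 in monocyte/macrophage-like, 12.7, 19.1 and 33.4 in neutrophil-like, 21.3, 24.1 and 26.5 in T/NK/ILC-like and 35.6, 31.05 and 25.7 in B-like cells. In Sham and D7 Irf7 was at 9.32 and 7.7 in smooth-muscle-like, 6.65 and 9.81 in lymphatic-endothelial-like and 4.42 and 5.81 in adipocyte-like cells. Stat2 there was at 24.5 and 21.3 in smooth-muscle-like, 27.8 and 29.4 in lymphatic-endothelial-like and 88.3 and 41.9 CPM in adipocyte-like cells. Irf9, a partner of STAT2, was at 25.5, 15.5 and 20.7 in fibroblast-like and 45.99, 27.8 and 33.2 in endothelial-like cells. Irf9 was at 46.8, 52.8 and 36.4 in monocyte/macrophage-like, 49.05, 33.97 and 38.1 in neutrophil-like and 32.9, 53.6 and 41.5 CPM in dendritic-like cells. Irf7 of dendritic-like cells was more than 2-fold above Sham at both days (3.35 [2.54 to 4.5] at D2 and 4.1 [3.07 to 5.55] at D7), and Stat2 of neutrophil-like cells at D7 (2.64 [1.31 to 6.19]).

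Irf1, an early target of the gamma response, was present in every class. It was at 260.2, 66.8 and 159 CPM in fibroblast-like and 165, 69.3 and 61.8 in endothelial-like cells. Irf1 was at 208, 95.6 and 92.8 in monocyte/macrophage-like, 179, 219 and 209 in neutrophil-like and 133, 45.9 and 63.8 in dendritic-like cells, and at 112, 126 and 125 in T/NK/ILC-like and 73.7, 62.1 and 73.5 in B-like cells. For Sham and D7, Irf1 was at 139.7 and 107 in smooth-muscle-like, 37.5 and 31.6 in lymphatic-endothelial-like and 287 and 339 in adipocyte-like cells. At D2 it was 0.257 (0.214 to 0.306) of Sham in fibroblast-like, 0.420 (0.331 to 0.528) in endothelial-like and 0.346 (0.308 to 0.389) in dendritic-like cells, and 1.23 (1.02 to 1.49) in neutrophil-like cells.

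The guanylate-binding proteins are GTPases that attack the membranes of intracellular pathogens and of the vacuoles that hold them. Gbp2 was at 100.5, 13.5 and 29.8 CPM in fibroblast-like and 74.1, 54.3 and 38.7 in endothelial-like cells. Gbp2 was at 67.01, 12.2 and 23.4 in monocyte/macrophage-like, 28.5, 17.5 and 55.2 in neutrophil-like and 70.4, 4.57 and 14.6 in dendritic-like cells, and at 26.3, 21.05 and 29.4 in T/NK/ILC-like and 3.31, 14.2 and 7.7 in B-like cells. It was lower at D2 than in Sham in all of these but B-like cells, with intervals that include 1 in T/NK/ILC-like (0.802 [0.554 to 1.15]) and neutrophil-like cells (0.613 [0.382 to 1.05]), and neutrophil-like cells had more at D7 than in Sham (1.94 [1.21 to 3.31]). Gbp4 was at 102, 28.6 and 45.1 in endothelial-like, 50.8, 22.4 and 28.6 in T/NK/ILC-like, 21.8, 0.490 and 1.65 in dendritic-like, 6.08, 0 and 0.235 in fibroblast-like, 6.98, 0.402 and 1.6 in monocyte/macrophage-like, 16.6, 14.2 and 8.98 in B-like and 0, 0.149 and 0.326 CPM in neutrophil-like cells. Neutrophil-like cells thus had almost no Gbp4 in any library while their Gbp2 and Gbp5 were highest at D7. In Sham and D7 Gbp2 was at 38.4 and 19.3 in smooth-muscle-like, 50.8 and 28.3 in lymphatic-endothelial-like and 57.4 and 58.1 CPM in adipocyte-like cells. Gbp4 there was at 8.15 and 0.889 in smooth-muscle-like and 31.4 and 3.27 in lymphatic-endothelial-like cells and had no UMI in adipocyte-like cells. Gbp5, which promotes inflammasome assembly, was at 1.58, 11.3 and 46.9 in neutrophil-like, 52.4, 7.87 and 12.2 in monocyte/macrophage-like, 33.8, 5.39 and 12.5 in dendritic-like, 53.1, 19.3 and 17.9 in endothelial-like and 29, 2.07 and 7.32 CPM in fibroblast-like cells. Gbp7 was at 128, 72.1 and 67.1 in endothelial-like, 40.7, 11.9 and 25.2 in fibroblast-like and 67.4, 38.1 and 57.01 in T/NK/ILC-like cells, and Gbp3 at 44.97, 24.3 and 36.5 in endothelial-like, 20.2, 4.66 and 9.2 in fibroblast-like and 17.1, 10.5 and 16.02 in T/NK/ILC-like cells.

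The immunity-related GTPases dismantle parasite vacuoles, and Iigp1 was highest in endothelial-like cells. It was at 323, 147 and 130.4 CPM in endothelial-like, 228, 3.11 and 28.6 in fibroblast-like, 47.1, 0.245 and 0.494 in dendritic-like, 17.5, 2.07 and 2.51 in monocyte/macrophage-like and 13.3, 8.77 and 21.5 in T/NK/ILC-like cells of Sham, D2 and D7. It was at 0, 0.149 and 0.652 in neutrophil-like and 0, 0 and 0.642 in B-like cells, under 1 CPM in each library. The Sham and D7 levels of Iigp1 were 85 and 64.9 in smooth-muscle-like, 141 and 62.1 in lymphatic-endothelial-like and 48.6 and 48.8 in adipocyte-like cells. Endothelial-like cells kept more of it at D2 (0.455 [0.387 to 0.534] of Sham) than fibroblast-like (0.0136 [0.00499 to 0.0297]) or dendritic-like cells (0.00521 [0.00107 to 0.0154]), and the counting interval of the endothelial-like ratio does not touch the other two, which overlap. Igtp was at 33.7, 2.07 and 7.24 in fibroblast-like, 38.8, 17.9 and 13.8 in endothelial-like and 17.4, 11.8 and 21.7 in neutrophil-like cells. Irgm1, which regulates the other members of its family, was at 46.4, 6.73 and 15.4 in fibroblast-like, 48.03, 43.6 and 32.4 in endothelial-like and 11.1, 19.2 and 25.4 in neutrophil-like cells. Ifi47 was at 64.7, 53.1 and 62.5 in T/NK/ILC-like, 31.4, 5.7 and 13.3 in fibroblast-like, 30.7, 16.4 and 21.2 in endothelial-like and 6.33, 6.84 and 27.04 CPM in neutrophil-like cells, where it was highest at D7.

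The chemokines Cxcl9 and Cxcl10 both call T cells and natural killer cells through CXCR3, and although they lie side by side on chromosome 5 they differed in which cells held them. Cxcl9 was at 113, 0.980 and 33.4 CPM in dendritic-like, 68.5, 7.14 and 7.82 in endothelial-like, 65.04, 1.55 and 9.26 in fibroblast-like, 7.68, 1.42 and 30 in monocyte/macrophage-like and 0, 0.248 and 3.91 in neutrophil-like cells, 0.553, 0 and 0 in T/NK/ILC-like and 1.66, 0 and 1.93 in B-like cells. No class had more than 7.14 CPM of Cxcl9 at D2, and at D7 it was highest in dendritic-like and monocyte/macrophage-like cells. For Sham and D7, Cxcl9 was at 47.7 and 5.93 in smooth-muscle-like, 0 and 0 in lymphatic-endothelial-like and 4.42 and 10.5 in adipocyte-like cells. Cxcl10 was at 144, 18.6 and 43.2 in fibroblast-like, 103, 19.4 and 46.1 in dendritic-like, 89.4, 87.6 and 115 in monocyte/macrophage-like, 6.33, 74.5 and 313 in neutrophil-like and 6.13, 19.99 and 14.5 in endothelial-like cells, 19.6, 9.65 and 35.5 in T/NK/ILC-like and 0.828, 34.9 and 10.9 in B-like cells. In Sham and D7 Cxcl10 was at 85 and 61.6 in smooth-muscle-like, 2.42 and 5.45 in lymphatic-endothelial-like and 4.42 and 228 in adipocyte-like cells. The class with the highest Cxcl10 level was fibroblast-like in Sham and neutrophil-like at D7, while endothelial-like cells of Sham had Cxcl10 at 6.13 CPM.

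**Figure D2:**
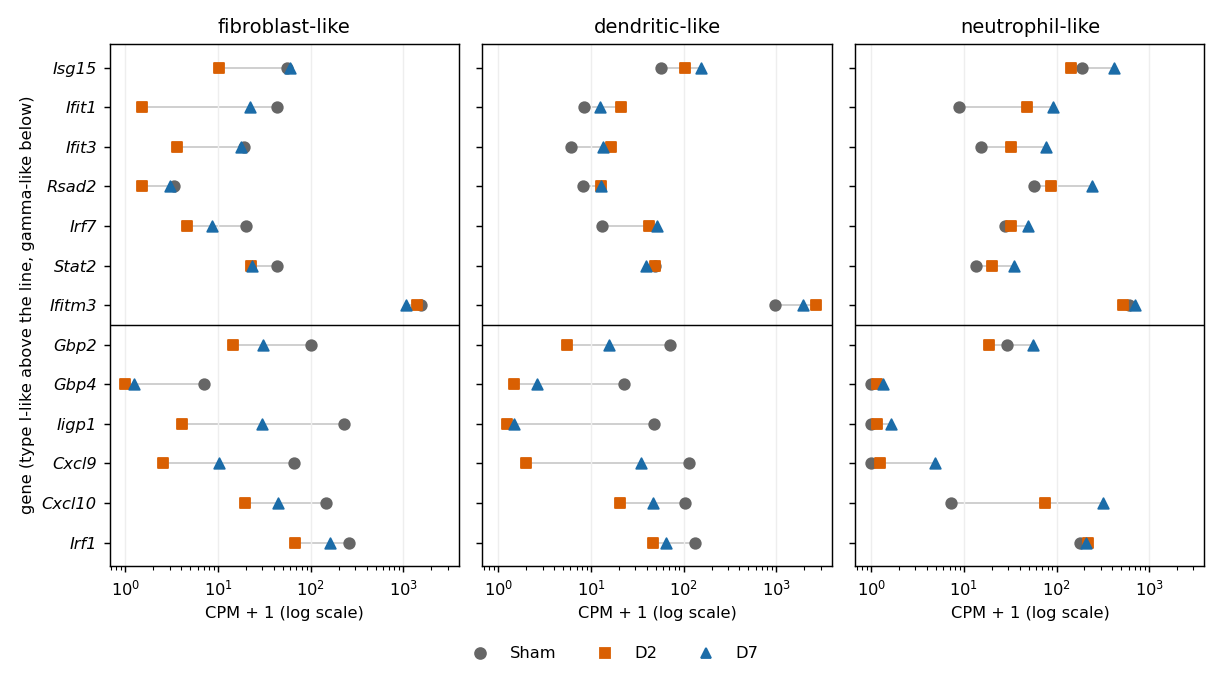
Level (CPM + 1, log axis) of 13 of the genes in fibroblast-like, dendritic-like and neutrophil-like cells of Sham (circles), D2 (squares) and D7 (triangles). In fibroblast-like cells D2 lies left of Sham for all 13 genes, in dendritic-like cells D2 lies right of Sham for Isg15, Ifit1, Ifit3, Rsad2, Irf7 and Ifitm3 and left for the gamma-like genes, and in neutrophil-like cells D7 lies right of Sham for all 13 genes.

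Fibroblast-like cells of D2, 89 in number, had the lowest summed gamma-like level relative to Sham of all classes compared. A gene counts as higher or lower here when it has 20 CPM and 20 UMIs or more in its higher library and its CPM + 1 differ 2-fold or more, a rule of size and no test. At D2 against Sham 11 of 11 gamma-like genes past that floor were lower and 0 higher, with a median log2 ratio of -2.81. Of the type I-like genes 8 of 14 were lower and 0 higher, with a median of -1.74. Over all genes past the floor in this class 14.6% were lower and 13.3% higher, with a median of -0.03. The lowest ratios belonged to Iigp1 (a GTPase that coats the vacuoles of intracellular parasites) at 0.0136 (0.00499 to 0.0297), Ifit1 at 0.0122 (0.000307 to 0.0680) and Cxcl9 at 0.0239 (0.00492 to 0.0700), the last 2 resting on 1 and 3 UMIs at D2. Ifitm3 (0.910 [0.874 to 0.947]), Bst2 (0.687 [0.587 to 0.799]) and Zbp1 (0.644 [0.414 to 0.962]) were nearest to Sham.

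At D7 the fibroblast-like cells stood between Sham and D2. The summed gamma-like level was 0.136 (0.120 to 0.154) of Sham at D2, 0.346 (0.338 to 0.354) of Sham at D7 and 2.54 (2.25 to 2.88) times D2 at D7. Of the gamma-like genes 9 of 11 were lower at D7 than in Sham (median -1.71), and of the type I-like genes 4 of 14 (median -0.55), with none higher in either list, against 9.52% lower and 6.70% higher of all genes (median -0.09). Iigp1 (0.125 [0.117 to 0.134]), Cxcl9 (0.142 [0.126 to 0.161]), Usp18 (0.183 [0.153 to 0.219]) and Ifi27l2a (0.200 [0.194 to 0.207]) were furthest below Sham, while Isg15 (1.06 [0.979 to 1.15]), Bst2 (1.03 [0.977 to 1.08]) and Zbp1 (0.816 [0.711 to 0.938]) were closest to it or above. Against D2, 5 of 5 gamma-like and 2 of 8 type I-like genes were higher at D7 and none lower, against 5.97% of all genes higher and 5.68% lower. The highest ratios of D7 to D2 were those of Ifit1 (40.6 [7.26 to 1605]), Iigp1 (9.19 [4.21 to 25.1]) and Isg15 (6.23 [3.93 to 10.5]), and the lowest those of Ifitm3 (0.755 [0.726 to 0.785]), Stat2 (1.01 [0.744 to 1.42]) and Xaf1 (1.28 [0.932 to 1.81]).

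Fibroblast-like cells of the 3 libraries lay in different clusters. Those of Sham were mainly in cluster 9 (led by Inmt, Penk and C7) and cluster 13 (led by Pi16 and Sema3c), those of D2 and D7 mainly in cluster 0 (led by Mfap4, Cthrc1 and Postn), which held 16 Sham cells. Where a Sham cluster had D7 cells of its own, its gamma-like sum was still lower at D7, with 1145 and 614 CPM in Sham and D7 in cluster 9 (1256 and 92 cells) and 895 and 316 in cluster 13 (775 and 124 cells). The type I-like sum of 19 genes was 437 and 399.9 in cluster 9 and 386 and 476 in cluster 13. Cluster 13 was thus lower in the gamma-like sum and higher in the type I-like sum at D7. Of its genes past the floor, 8 of 11 gamma-like genes were lower and 2 of 16 type I-like genes higher and 1 lower, against 3.72% of all genes of the cluster lower and 3.72% higher. Cluster 0 itself had gamma-like sums of 137 and 346 CPM at D2 and D7, with 4 of 5 gamma-like and 1 of 7 type I-like genes higher at D7, against 6.53% of its genes. A list of 19 genes known to respond to tissue dissociation (among them Fos and Jun) summed to 12777, 6982 and 12430.1 CPM in the whole class. Of these, 7 of 18 were lower and 1 higher at D2, against 14.6% and 13.3% of all genes. The part of this list in the result was not tested. With a floor of 50 CPM 7 of both lists together, not 19, were lower at D2 and 5, not 13, at D7, because fewer members reach that floor.

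Endothelial-like cells had the highest gamma-like sum of all classes in Sham, and it was lower at both days after injury. At D2 6 of 11 gamma-like and 4 of 17 type I-like genes were lower than in Sham and none higher (medians -0.97 and -0.28), against 9.62% of all genes lower and 10.0% higher. At D7 6 of 11 and 5 of 16 were lower and again none higher (medians -1.04 and -0.58), against 5.91% and 5.72%. Cxcl9 had the lowest ratio at both days, 0.104 (0.0489 to 0.198) at D2 and 0.114 (0.0685 to 0.182) at D7. It was followed at D2 by Ifi27l2a (0.250 [0.168 to 0.362]) and Gbp4 (0.279 [0.194 to 0.394]) and at D7 by Rsad2 (0.242 [0.193 to 0.303]) and Ifit2 (0.278 [0.166 to 0.451]). The highest were Oasl2 (1.6 [1.07 to 2.39]), Ifit1 (1.35 [0.921 to 1.98]) and Ifitm3 (1.18 [1.12 to 1.24]) at D2 and Oasl2 (1.18 [0.813 to 1.71]), Ifitm3 (1.15 [1.1 to 1.2]) and Ifi44 (1.12 [0.831 to 1.53]) at D7.

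From D2 to D7 the gamma-like genes of endothelial-like cells differed little, with none of 8 higher or lower. Of the type I-like genes 3 of 15 were lower and 1 higher at D7 (all genes 1.45% and 2.85%). Ifit3 (0.277 [0.165 to 0.454]), Ifit1 (0.293 [0.184 to 0.459]) and Usp18 (0.417 [0.234 to 0.739]) were lower and Ifi27l2a (2.82 [1.95 to 4.2]) higher, followed by Gbp4 (1.58 [1.1 to 2.32]) and Ifih1 (1.57 [1.02 to 2.47]). The gamma-like sum was also lower after injury in the larger endothelial-like cluster (16, led by Fabp4, Mecom and Flt1), at 1171, 518 and 515 CPM in the 3 libraries. Dissociation-response genes summed to 4918, 2828 and 2872 CPM, lower beside the gamma-like genes. Of these, 11 of 18 were lower at D2 and 9 of 18 at D7, against 9.62% and 5.91% of all genes. Their part in the result was not tested.

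Lymphatic-endothelial-like cells could be compared between Sham and D7 alone, and the 2 lists differed there. At D7 7 of 9 gamma-like genes were lower and none higher (median -1.16). In contrast 2 of 11 type I-like genes were higher and none lower (median 0.08), against 4.16% of all genes lower and 4.50% higher. The summed gamma-like level was 499 and 225 CPM and the type I-like level of 19 genes 348 and 409.8. Gbp4 (0.104 [0.0208 to 0.321]), Gbp5 (0.139 [0.0274 to 0.436]) and Igtp (0.218 [0.0838 to 0.478]) had the lowest ratios and Zbp1 (2.25 [1.2 to 4.28]), Ifit1 (2.18 [1.23 to 3.91]) and Ifi44 (2.01 [1.24 to 3.27]) the highest. Dissociation-response genes differed less here, at 3181 and 2989 CPM.

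In smooth-muscle-like cells, whose main cluster was led by Rgs5, Acta2 and Tagln, 2 of 8 gamma-like and 2 of 8 type I-like genes were lower at D7 than in Sham and none higher, against 7.31% lower and 9.29% higher of all genes. The lowest were Cxcl9 (0.124 [0.0689 to 0.217]), Ifit3 (0.133 [0.0580 to 0.289]) and Ifit1 (0.206 [0.102 to 0.410]), and the highest Bst2 (1.7 [1.35 to 2.17]), Ifitm3 (1.6 [1.49 to 1.73]) and Xaf1 (1.13 [0.678 to 1.96]). The type I-like sum of this class depended on its abundant genes, at 1.38 (1.3 to 1.47) of Sham with Ifitm3, Bst2 and Ifi27l2a and 0.762 (0.653 to 0.893) without. With stricter cells, with doublets kept or at a clustering resolution of 2 only 2 members of both lists were lower, not 4, and with a floor of 50 CPM 0 were.

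In neutrophil-like cells genes of both lists were higher at D7. Against Sham 9 of 19 type I-like genes (median 0.81) and 4 of 8 gamma-like genes (median 1.03) were higher and none lower. That stands beside a high background, since 25% of all genes were higher and 6.75% lower, with a median over all genes of 0.29, and beside a Sham class of 148 cells. The comparison of D7 with D2 rested on 1566 and 4509 cells and had a lower background: 6 of 19 type I-like (median 0.77) and 4 of 8 gamma-like genes (median 1.26) were higher and none lower, against 2.12% and 1.15% of all genes (median -0.05). At D2 against Sham 3 of 14 type I-like and 1 of 2 gamma-like genes were higher and none lower, against 25.3% and 6.73% (median 0.35), while the type I-like sum without Ifitm3, Bst2 and Ifi27l2a was at 0.911 (0.834 to 0.998) of Sham.

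Cxcl10 (a chemokine that draws CXCR3-bearing T cells) had the highest ratio in every comparison of neutrophil-like cells, 11.8 (4.59 to 43.3) for D2 and 49.5 (19.3 to 182) for D7 over Sham and 4.2 (3.92 to 4.5) for D7 over D2. It was followed over Sham by Bst2 and Ifit1 at D2 (9.54 [2.63 to 78.99] and 5.96 [2.54 to 18.4]) and by Gbp5 and Bst2 at D7 (29.7 [5.28 to 1175] and 14.9 [4.1 to 124]). The Sham values of Gbp5, Bst2 and Cxcl10 rested on 1, 2 and 4 UMIs. Over D2 the next were Gbp5 (4.15 [3.48 to 4.96]) and Ifi47 (3.95 [3.13 to 4.99]). At the other end stood Oas3 (0.517 [0.362 to 0.764]), Rtp4 (0.594 [0.467 to 0.766]) and Ifih1 (0.659 [0.467 to 0.959]) for D2 over Sham, and Irf9 (0.777 [0.533 to 1.17]), Ifi27l2a (0.799 [0.693 to 0.926]) and Oas2 (0.890 [0.587 to 1.41]) for D7 over Sham. For D7 over D2 the lowest were Ifi27l2a (0.832 [0.788 to 0.878]), Irf1 (0.952 [0.894 to 1.01]) and Irf9 (1.12 [0.963 to 1.3]).

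The difference between D2 and D7 was present in each neutrophil-like cluster. The type I-like sum at D2 and D7 was 579.6 and 1009 CPM in cluster 2 (led by Il1a, Il23a and Tnf), 789 and 1417 in cluster 4 (Cxcr2, Il1r2, Csf3r) and 797 and 1814 in cluster 11 (Acod1, Hcar2). The gamma-like sums were 422 and 699, 337 and 597 and 378 and 1101. Cluster 14 (led by Retnlg, Wfdc21 and Lcn2) held most neutrophil-like cells of Sham and had type I-like sums of 803, 1066 and 2003 in Sham, D2 and D7 and gamma-like sums of 265, 341 and 591. Within it 7 of 17 type I-like and 4 of 7 gamma-like genes were higher at D7 than in Sham, against 12.4% of all genes of that cluster. Dissociation-response genes went the other way in the class from D2 to D7, summing to 20083, 24836 and 16676 CPM. With a floor of 50 CPM 5, not 13, members of both lists were higher at D7 and 1, not 4, at D2.

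In dendritic-like cells the 2 lists differed in direction. At D2 against Sham 6 of 15 type I-like genes were higher and none lower (median 0.90). Of the gamma-like genes 8 of 11 were lower and none higher (median -2.14), against 6.98% of all genes higher and 7.01% lower (median 0.10). At D7 2 of 12 type I-like genes were higher (median 0.49) and 9 of 11 gamma-like genes lower (median -1.41), against 5.62% and 4.90%. Oas2 (a sensor of double-stranded RNA) at 5.84 (3.52 to 10.4), Irf7 (the factor that amplifies type I interferon) at 3.35 (2.54 to 4.5), Rtp4 at 2.85 (2.18 to 3.77) and Ifitm3 (a block to viral entry) at 2.76 (2.68 to 2.85) were highest at D2. The lowest were Cxcl9 (0.00867 [0.00445 to 0.0153]), Iigp1 (0.00521 [0.00107 to 0.0154]) and Gbp4 (0.0225 [0.00806 to 0.0507]). At D7 the highest were Irf7 (4.1 [3.07 to 5.55]), Isg15 (2.72 [2.36 to 3.13]) and Ifitm3 (2.0 [1.93 to 2.07]) and the lowest Iigp1 (0.0105 [0.00215 to 0.0311]), Gbp4 (0.0755 [0.0351 to 0.145]), Gbp3 (0.199 [0.138 to 0.282]) and Gbp2 (0.208 [0.163 to 0.264]).

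From D2 to D7 2 of 5 gamma-like genes of dendritic-like cells were higher and 1 of 15 type I-like genes lower (all genes 1.59% and 0.445%). The highest ratios were those of Cxcl9 (34.1 [19.1 to 67.03]), Cxcl10 (2.38 [1.99 to 2.84]) and Isg15 (1.5 [1.37 to 1.63]) and the lowest those of Usp18 (0.480 [0.374 to 0.609]), Oasl2 (0.515 [0.419 to 0.629]) and Rtp4 (0.594 [0.488 to 0.720]). Most cells of the class lay in 1 cluster (6, led by Cd209a and the class II genes H2-Eb1 and H2-Ab1), where 8 of 16 type I-like genes were higher and 8 of 11 gamma-like genes lower at D2, against 6.79% and 7.21% of its genes. Cluster 23 (led by Ccr7, Il4i1 and Fscn1, genes of migrating dendritic cells) held 100 D2 and 89 D7 cells, and its type I-like sum was 240.1 and 632 CPM and its gamma-like sum 122 and 449.7. There 6 of 13 type I-like and 5 of 5 gamma-like genes were higher at D7, against 5.29% of all genes. Dissociation-response genes of the class summed to 12499.7, 9242 and 8219 CPM, lower beside the gamma-like but not the type I-like genes, and their part was not tested. With stricter cells or at resolution 2, 4, not 9, members of both lists were lower at D7 and 4, not 2, higher. Both settings gave an unnamed cluster with Lyz1, Retnla, Ear2 and Gbp2b among its leading genes. It held 107 Sham, 3 D2 and 6 D7 cells at resolution 2 and 100, 1 and 5 with stricter cells. The dendritic-like clusters of resolution 2 held 248 and 9 Sham cells, against 419 in the class here. Whether those unnamed cells came from this class was not checked. A change in its make-up cannot be told apart from one within its cells.

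**Figure D3:**
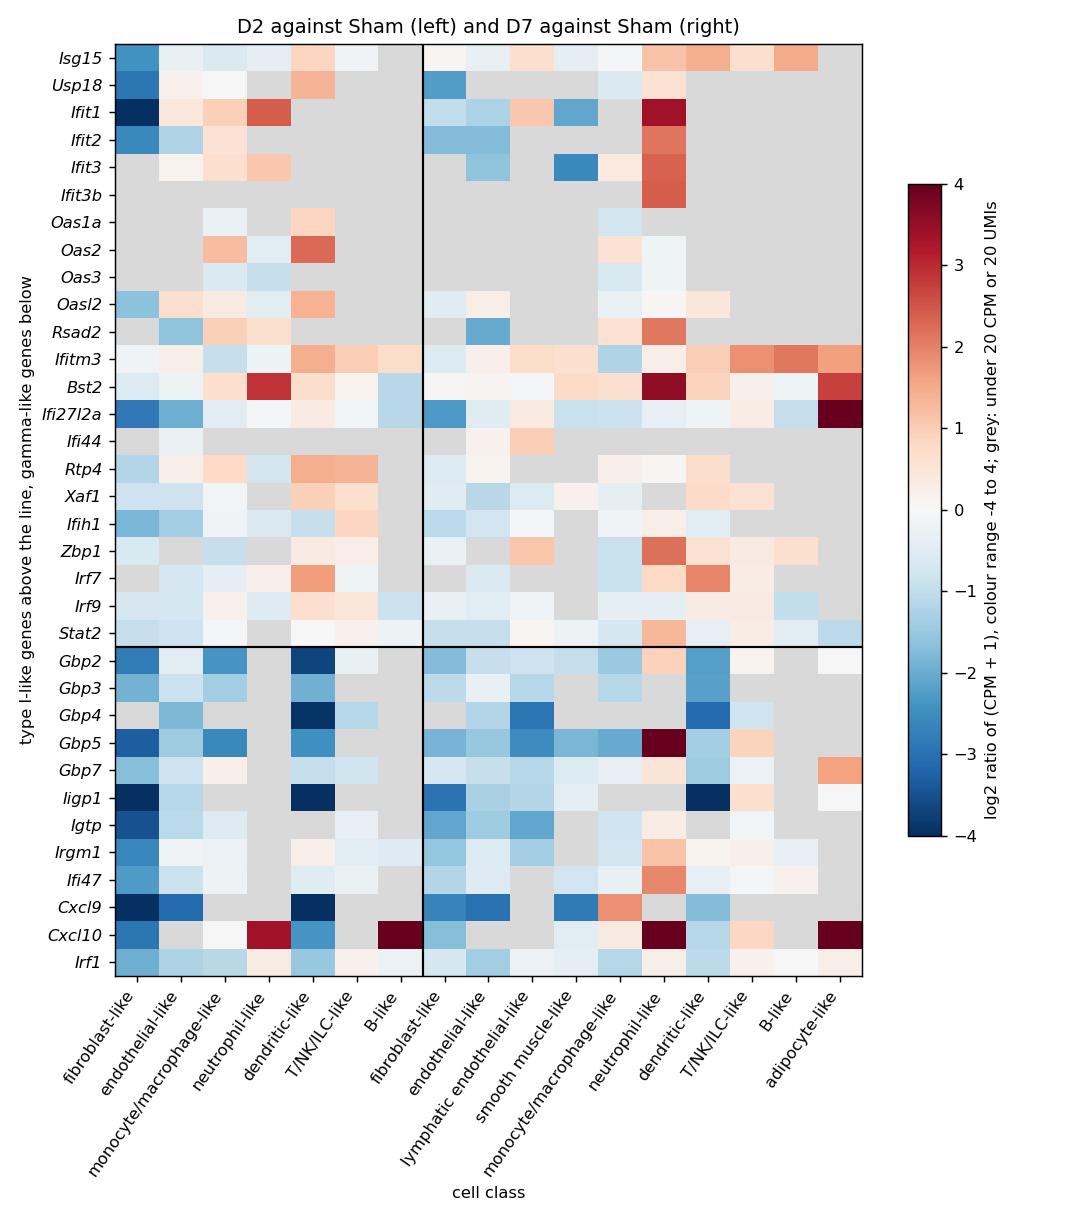
Log2 ratio of (CPM + 1) of each of the 34 genes (rows, type I-like above the line and gamma-like below) in the cell classes, D2 against Sham on the left and D7 against Sham on the right (colour range -4 to 4, red higher after injury). Grey cells were under 20 CPM or 20 UMIs in the higher library. The gamma-like block is mostly blue in fibroblast-like, endothelial-like and dendritic-like cells and red in neutrophil-like cells at D7. In that neutrophil-like comparison 4 of 8 gamma-like genes were higher, against 25% of all genes.

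In the monocyte/macrophage-like class as a whole several gamma-like genes were lower after injury and most type I-like ones close to Sham. At D2 4 of 9 gamma-like genes were lower and none higher (median -0.50). Of 20 type I-like genes 1 was higher and none lower (median -0.03), against 7.07% of all genes lower and 11.2% higher (median 0.14). At D7 4 of 10 gamma-like genes were lower and 1 higher (median -0.77). Of the type I-like genes 1 of 18 was lower (median -0.31), against 8.17% and 9.55%. Gbp5 (0.150 [0.117 to 0.195]), Gbp2 (0.182 [0.146 to 0.228]) and Gbp3 (0.374 [0.288 to 0.494]) were lowest at D2, with Oas2 (2.47 [1.59 to 4.05]), Rsad2 (2.0 [1.41 to 2.95]) and Ifit1 (1.99 [1.33 to 3.11]) highest. At D7 Gbp5 (0.234 [0.180 to 0.306]), Gbp2 (0.350 [0.281 to 0.439]) and Ifitm3 (0.437 [0.424 to 0.450]) were lowest and Cxcl9 (3.91 [2.17 to 7.87]), Bst2 (1.57 [1.37 to 1.79]) and Rsad2 (1.55 [1.08 to 2.3]) highest.

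Between D2 and D7 1 of 7 gamma-like genes was higher at D7 and 1 of 19 type I-like genes lower (all genes 1.65% and 1.08%). The gene that was higher was Cxcl9, at 21.2 (16.5 to 27.7), and the one that was lower Ifit1, at 0.477 (0.424 to 0.536). Next came Gbp2 (1.92 [1.7 to 2.17]) and Isg15 (1.43 [1.36 to 1.5]) on the high side and Oas2 (0.616 [0.554 to 0.683]), Ifit2 (0.631 [0.550 to 0.721]) and Oasl2 (0.640 [0.595 to 0.687]) on the low side. Most Sham cells of the class (159 of 200) lay in cluster 5, led by the monocyte genes Chil3, Plac8 and Ly6c2, and there the type I-like sum was higher after injury, with 857, 1088 and 1249 CPM in Sham, D2 and D7. Its gamma-like sum was 533, 421 and 631. In that cluster 5 of 20 type I-like genes were higher at D2 and 4 of 20 at D7, against 7.63% and 5.84% of its genes. Of its gamma-like genes 1 of 8 was higher and 2 lower at D2, and 2 of 10 were higher and none lower at D7, against 6.53% and 6.17% of its genes lower, so the lower gamma-like genes of the class at D7 were not seen in this cluster. For the type I-like sum the whole class, at 809.8, 802 and 658 CPM, did not share that order.

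The macrophage-like clusters 1 (Il10, Gdf15, Arg1), 7 (Cx3cr1, Mertk, Trem2) and 15 (Stab1, Cbr2, Mrc1) held almost no Sham cells. Their type I-like sums at D2 and D7 were 646 and 443, 901 and 472 and 761 and 544 CPM, lower at D7 in each. In cluster 7 6 of 19 type I-like genes were lower at D7 and none higher, against 1.90% of all genes. Cluster 10, left without a class and led by Cd209f, Cd163, Folr2 and Lyve1 (genes known from resident macrophages of vessels), held 760 Sham and 259 D7 cells. Its gamma-like sum was 945 and 365 CPM in Sham and D7 and its type I-like sum 910.2 and 797, with 7 of 11 gamma-like genes lower and none higher, against 3.24% of its genes. With every cluster placed in its best-scoring class, which puts cluster 10 among the monocyte/macrophage-like cells, 8, not 4, members of both lists were lower at D2 and 9, not 5, at D7.

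**Figure D4:**
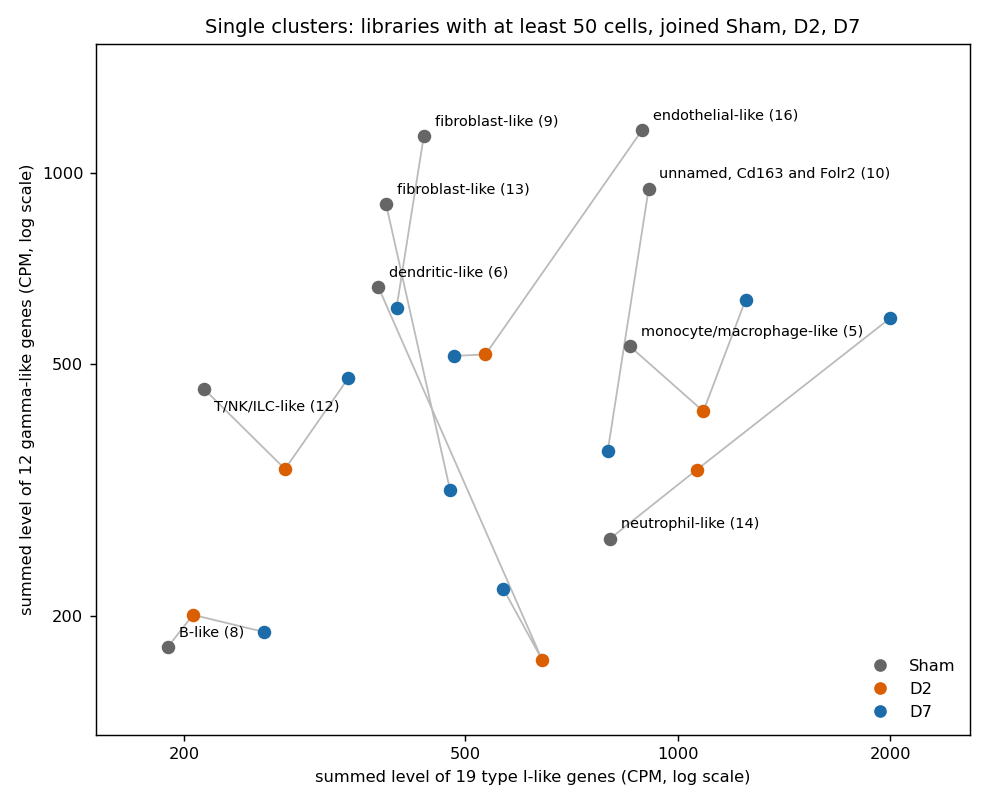
Summed level of the 19 type I-like genes (x axis) against that of the 12 gamma-like genes (y axis), both in CPM on log axes, for 9 single clusters (class and cluster number at the Sham point), with points for libraries of at least 50 cells joined in the order Sham, D2, D7. The dendritic-like cluster 6 lies lower and further right after injury (gamma-like 662 to 171 CPM at D2, type I-like 377 to 643), the neutrophil-like cluster 14 lies higher and further right at D7, and the endothelial-like cluster 16 lower and further left.

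In lymphoid classes taken whole few members differed. In T/NK/ILC-like cells 1 of 11 type I-like genes was higher at D2 and 1 of 7 gamma-like genes lower, against 3.55% and 2.73% of all genes. At D7 1 of 9 and none of 10 differed from Sham (all genes 2.43% higher). Single clusters of the class had more: in cluster 12 2 of 10 type I-like and 2 of 10 gamma-like genes were higher at D7 and none lower, against 2.66% of its genes higher and 2.45% lower. In cluster 20 3 of 10 type I-like genes were higher, and of 10 gamma-like genes 1 was higher and 2 lower, against 4.23% and 3.98%. In the whole class 2 of 10 gamma-like genes were higher at D7 than at D2 (all genes 0.496%, with 0.526% lower). The lower gene at D2 was Gbp4 (0.440 [0.316 to 0.603]), before Gbp7 (0.566 [0.438 to 0.726]) and Irgm1 (0.719 [0.465 to 1.09]), and the higher one Rtp4 (2.81 [1.7 to 4.73]), before Ifitm3 (1.99 [1.71 to 2.3]) and Ifih1 (1.9 [1.23 to 2.97]). At D7 Ifitm3 (3.6 [3.19 to 4.06]), Gbp5 (1.91 [1.39 to 2.65]) and Cxcl10 (1.81 [1.37 to 2.41]) were highest and Gbp4 (0.562 [0.450 to 0.702]), Gbp7 (0.846 [0.712 to 1.01]) and Igtp (0.930 [0.707 to 1.23]) lowest. Over D2 the highest were Cxcl10 (3.68 [2.36 to 6.01]), Iigp1 (2.46 [1.52 to 4.17]) and Ifitm3 (1.81 [1.63 to 2.02]), and the lowest Irf9 (0.913 [0.682 to 1.23]), Ifih1 (0.915 [0.643 to 1.32]) and Rtp4 (0.964 [0.674 to 1.4]).

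In B-like cells 2 of 5 type I-like genes were lower and 1 of 3 gamma-like genes higher at D2 (all genes 2.90% lower and 4.35% higher). At D7 2 of 7 type I-like genes were higher than in Sham (all genes 4.97%), and against D2 3 of 7 were higher and 1 of 4 gamma-like genes lower (all genes 1.69% and 0.272%). Bst2 (0.455 [0.332 to 0.621]), Ifi27l2a (0.465 [0.409 to 0.529]) and Irf9 (0.548 [0.376 to 0.796]) were lowest at D2 and Cxcl10, with 1 UMI in Sham and 64 at D2, highest, before Ifitm3 (1.69 [1.25 to 2.3]) and Stat2 (0.872 [0.577 to 1.33]). A single D2 cell carried 16 of the 31 type I-like core UMIs counted in thinned B-like cells (thinning is described below). At D7 Ifitm3 (4.36 [3.36 to 5.74]), Isg15 (2.94 [1.77 to 5.2]) and Zbp1 (1.6 [0.997 to 2.68]) were highest over Sham and Irf9 (0.499 [0.357 to 0.699]), Ifi27l2a (0.513 [0.460 to 0.572]) and Stat2 (0.721 [0.492 to 1.07]) lowest. Over D2 Zbp1 (4.47 [2.44 to 8.96]), Isg15 (3.04 [1.97 to 4.87]) and Ifitm3 (2.58 [2.17 to 3.09]) were highest and Cxcl10 (0.313 [0.200 to 0.482]), Stat2 (0.827 [0.581 to 1.18]) and Irf9 (0.910 [0.641 to 1.3]) lowest.

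Adipocyte-like cells had few UMIs in Sham (226409), and 30.5% of all genes were higher and 13.8% lower at D7. The class did not hold together under every clustering. At resolution 2 its cluster had 0 Sham and 30 D7 cells. An unnamed cluster led by Robo1, Bnc2 and Gpc6 then had 87 and 64. With the members clustered the numbers were 0 and 30, and 87 and 65. With stricter cells (64 and 82) and with doublets kept (87 and 95) the class held both. So its Sham and D7 cells may differ in type, which cannot be told apart from a difference after injury. Of the type I-like genes 3 of 4 were higher and 1 lower, and of the gamma-like genes 2 of 5 were higher. Ifi27l2a was at 22.1 and 1088 CPM in Sham and D7, a ratio of 49.3 (21.04 to 152), Cxcl10 at 4.42 and 228 with 1 UMI in Sham (51.6 [9.15 to 2048]) and Bst2 at 8.83 and 65.1 (7.37 [1.95 to 62.4]), while Gbp2 (1.01 [0.542 to 2.03]), Iigp1 (1.0 [0.509 to 2.16]) and Stat2 (0.474 [0.267 to 0.864]) were lowest. Plasmacytoid-dendritic-like cells, which are known for type I interferon production, had 50 cells in D7 alone, with a type I-like sum of 4756 CPM of which Bst2, a marker of this cell type, made up 3736. Mast/basophil-like cells (Sham alone) had a type I-like sum of 708 and a gamma-like sum of 392 CPM, and Schwann-like cells (Sham alone) 1643 and 180.4.

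Summed levels do not say how many cells carry the transcripts, so every cell was thinned to 1000 UMIs drawn at random, which makes cells of different depth comparable. Counted were cells with a UMI of at least 3 of 9 type I-like core genes (Isg15, Ifit1, Ifit2, Ifit3, Ifit3b, Rsad2, Usp18, Oasl2, Irf7) or of at least 2 of 8 gamma-like ones (the Gbp genes, Iigp1, Igtp, Ifi47). The type I-like share was 2.04%, 2.88% and 5.74% of neutrophil-like cells in Sham, D2 and D7, 1.03%, 2.26% and 2.72% of monocyte/macrophage-like, 3.99%, 2.35% and 0.272% of endothelial-like, 0.666%, 0% and 0.729% of fibroblast-like and 0.240%, 1.44% and 1.33% of dendritic-like cells. In B-like cells it was 0%, 0.273% and 0.517%. At D7 it was 89 of 1551 cells (5.74%, 4.63 to 7.01) in neutrophil-like, 64 of 2349 cells (2.72%, 2.1 to 3.47) in monocyte/macrophage-like and 1 of 368 cells in endothelial-like cells. Without thinning the shares were 10.8%, 7.98% and 12.2% in neutrophil-like and 0.709%, 0.536% and 1.93% in B-like cells. Thinned to 2000 UMIs, where more genes are found per cell, the shares in Sham, D2 and D7 were 5.63%, 4.66% and 8.85% in neutrophil-like, 2.79%, 5.17% and 4.54% in monocyte/macrophage-like, 7.18%, 5.06% and 2.14% in endothelial-like, 1.75%, 0% and 1.36% in fibroblast-like, 0.741%, 4.15% and 2.73% in dendritic-like and 0%, 0.276% and 1.19% in B-like cells. The order of Sham and D2 in neutrophil-like, of D2 and D7 in monocyte/macrophage-like and of Sham and D7 in fibroblast-like cells turned with the depth, so none of these orders can be read from these shares, while neutrophil-like cells of D7 were highest at both depths.

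The gamma-like share was 15.96%, 7.06% and 6.25% of endothelial-like cells, 5.99%, 0% and 1.01% of fibroblast-like, 3.61%, 0.308% and 0.666% of dendritic-like, 3.59%, 1.12% and 2.0% of monocyte/macrophage-like, 4.36%, 1.86% and 3.7% of T/NK/ILC-like and 0.680%, 0.492% and 2.51% of neutrophil-like cells, beside 0.712%, 0.546% and 0.129% of B-like cells. In Sham it was 68 of 426 cells (15.96%, 12.6 to 19.8) in endothelial-like and 117 of 1953 cells (5.99%, 4.98 to 7.14) in fibroblast-like cells. The 0 at D2 in fibroblast-like cells was 0 of 88 cells, which allows a share of up to 4.11% (exact binomial), so D2 and D7 could not be told apart at this number of cells. Unthinned, the shares were 42.02%, 60.9% and 41.5% in endothelial-like and 24.4%, 16.9% and 27.6% in fibroblast-like cells, which follow depth as well as expression. At 2000 UMIs the gamma-like shares were 25.6%, 13.9% and 17.1% in endothelial-like, 10.9%, 1.2% and 2.31% in fibroblast-like, 8.4%, 1.24% and 1.88% in dendritic-like, 10.1%, 3.05% and 4.19% in monocyte/macrophage-like, 10.4%, 6.52% and 9.08% in T/NK/ILC-like, 1.41%, 1.14% and 4.46% in neutrophil-like and 0.738%, 1.1% and 1.32% in B-like cells, with the order of D2 and D7 in endothelial-like cells and of the 3 libraries in B-like cells turned. Cells under 1000 UMIs were left out, 94, 1 and 50 of the fibroblast-like, 50, 2 and 18 of the endothelial-like and 1, 36 and 15 of the neutrophil-like cells.

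**Figure D5:**
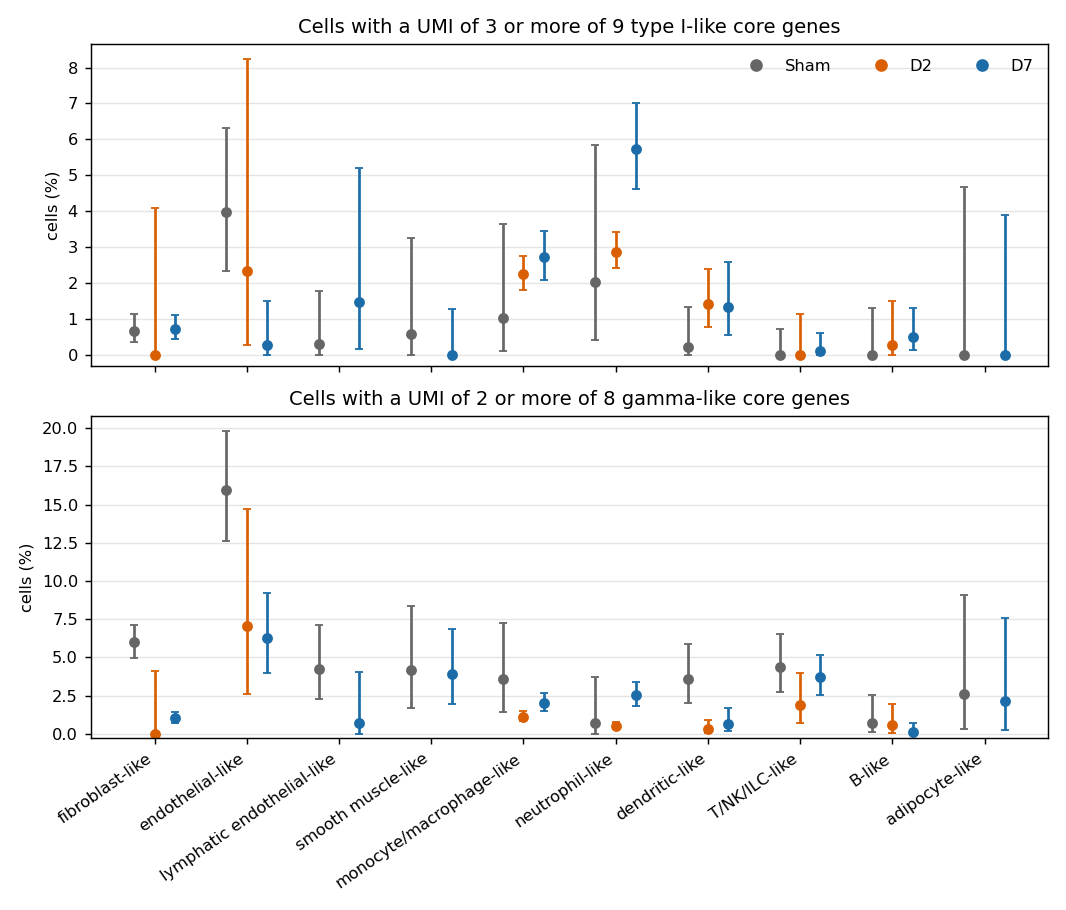
Percent of cells, each thinned to 1000 UMIs, with a UMI of 3 or more of 9 type I-like core genes (upper panel) and of 2 or more of 8 gamma-like core genes (lower panel) in 10 cell classes (grey Sham, orange D2, blue D7). Bars are exact binomial intervals. The type I-like share is highest in neutrophil-like cells of D7 (5.74%) and the gamma-like share in endothelial-like cells of Sham (15.96%).

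The type I-like transcripts of neutrophil-like cells sat in few cells, as they did in other classes. At D7 28.3% of neutrophil-like cells had a core UMI, and the 5% of cells with most held 64.4% of all core UMIs. In 1 cell 56 of its 1000 UMIs were of core genes, so the intervals of summed levels are too narrow in this class. At D2 19.6% of the class had a core UMI and the top 5% held 66.1%, and in Sham 25.2% and 35.5%. In fibroblast-like, dendritic-like and monocyte/macrophage-like cells of D7 9.37%, 13.8% and 18.3% had a type I-like core UMI. The top 5% there held 71.0%, 67.1% and 61.4%. At most 10, 14 and 31 core UMIs were in 1 cell of these classes. Cxcl9 was found in 9, 4 and 13 of their thinned D7 cells. The intervals of summed levels, and of the Cxcl9 ratios at D7, may therefore be too narrow in these classes as well. In endothelial-like cells of Sham gamma-like core UMIs were found in more cells than type I-like ones. Of these cells 43.0% had a gamma-like core UMI and the top 5% held 34.8%, against 24.6% and 50.2% for the type I-like core. The gamma-like core had 376 UMIs there and the type I-like core 201. Both shares depend on the number of UMIs, here and between the classes and libraries above, so a difference in spread cannot be told apart from one in level. For the gamma-like core, fibroblast-like cells of Sham had 19.8% and 61.1% and neutrophil-like cells of D7 9.61% and 74.8%.

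Some members were found together in the same cells. In neutrophil-like cells of D7 Isg15 was found in 83.3% of the 48 cells with an Ifit3 UMI and 15.3% of the 1503 without, and Gbp2 in 33.3% and 2.40%, so a gamma-like gene was found more often in cells with a type I-like one. At D2 the shares for Isg15 were 67.6% of 74 and 7.12% of 4399 cells. Isg15 was found in 41.2% of the 114 D7 neutrophil-like cells with Cxcl10 and 15.5% of those without. Both criteria at once were met by 29 of 1551 cells (1.87%, 1.26 to 2.67) in the neutrophil-like class at D7 and 11 of 426 cells (2.58%, 1.3 to 4.57) in the endothelial-like class in Sham. In fibroblast-like cells of Sham Gbp2 was found in 27.1% of the 188 cells with an Iigp1 UMI and 5.61% of the 1765 without, and Cxcl10 in 38.9% of the 36 with Cxcl9 and 4.38% of the 1917 without. At D7 the shares for Gbp2 were 4.55% of 66 and 2.95% of 2815 cells. In endothelial-like cells Gbp2 was found in 15% of the 80 Sham cells with an Iigp1 UMI and 5.78% of the 346 without, but at D7 in 5% of 40 and 5.18% of 328, and in Sham in 6.67% of the 15 cells with Ifit3 and 7.54% of the 411 without, which for Ifit3 rests on 1 cell.

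The ligands themselves were rare. Of 21 interferon genes, Ifng, the gamma interferon, had 262, 60 and 117 UMIs in the whole Sham, D2 and D7 libraries. T/NK/ILC-like cells held it at 69.6, 24.99 and 20.4 CPM, so it was lower after injury per UMI of the class (0.359 [0.264 to 0.480] of Sham at D2 and 0.293 [0.231 to 0.369] at D7). The make-up of this class differed between libraries. Its cluster 20 (led by Gzma and Nkg7) held 150, 63 and 192 cells in Sham, D2 and D7, and its cluster 12 (led by Lef1 and Trbc2) 204, 216 and 584. A change in make-up cannot be told apart here from one within the cells. Ifnb1, the beta interferon, had 67, 6 and 37 UMIs and was at 8.06, 0.327 and 1.65 CPM in dendritic-like cells. Ifnk had 14, 27 and 35 and Ifnz 4, 6 and 4 UMIs. Of the alpha genes only Ifna2 had any, 2, 0 and 0, and the lambda genes Ifnl2 and Ifnl3 and the epsilon gene Ifne had none. Counts this low limit what can be said of the ligands by class.

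Of the receptors, Ifngr1, the ligand-binding chain for interferon gamma, differed in direction between classes. It was at 175, 63.2 and 70.4 CPM in fibroblast-like and 259, 102 and 189 in endothelial-like cells. Ifngr1 was at 236, 546 and 371 in dendritic-like, 429, 333 and 259 in monocyte/macrophage-like, 523, 783 and 729 in T/NK/ILC-like and 180.4, 163 and 181 in neutrophil-like cells. Fibroblast-like (0.361 [0.298 to 0.433]) and endothelial-like cells (0.395 [0.326 to 0.476]) had less at D2 than in Sham and dendritic-like cells more (2.31 [2.17 to 2.47]), so in dendritic-like cells the receptor was higher and most gamma-like genes lower. Ifnar1, a type I receptor chain, was at 38.05, 41.4 and 39.3 in fibroblast-like and 43.4, 42.1 and 72.3 in endothelial-like cells. Ifnar1 was at 87.4, 98.2 and 101 in dendritic-like and 79.1, 76.5 and 91.4 in neutrophil-like cells, and Ifnar2, the other chain, at 101, 102 and 108 in fibroblast-like and 140.01, 136 and 152 in endothelial-like cells. Ifnar2 was at 109, 215 and 193 in dendritic-like and 169, 208 and 252 CPM in neutrophil-like cells. Ifngr2, the second gamma chain, was at 88.2, 158 and 148 in dendritic-like and 49.7, 126 and 108 in T/NK/ILC-like cells, and Ifnlr1, the lambda receptor, was highest in neutrophil-like cells (12.7, 17.9 and 18.2). Il10rb, shared by the lambda and interleukin-10 receptors, was at 129.7, 252 and 219 in neutrophil-like and 77.5, 208 and 166 in monocyte/macrophage-like cells.

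Among the kinases and signal factors Jak2, a kinase of the gamma receptor, was at 282, 584 and 736 CPM in neutrophil-like and 76.1, 189 and 178 in endothelial-like cells, higher after injury in both, and at 65.04, 116 and 105 in fibroblast-like cells. Jak1, shared by both receptors, was at 343, 238 and 219.6 in fibroblast-like, 197, 378 and 386 in endothelial-like and 389, 421 and 372 in neutrophil-like cells. Tyk2, of the type I receptor, was at 10.98, 8.29 and 8.89 in fibroblast-like, 26.6, 12.9 and 17.1 in endothelial-like and 6.33, 14.5 and 19.4 CPM in neutrophil-like cells. Irf8, a factor of myeloid and B cells, was at 242, 192 and 248 in dendritic-like and 131, 129 and 112 in monocyte/macrophage-like cells, Irf5, a factor downstream of toll-like receptors, at 168, 96.9 and 119 in dendritic-like and 205, 100.3 and 107 in monocyte/macrophage-like cells, and Irf3, which starts beta interferon transcription, at 18.3, 23.7 and 21.2 in dendritic-like and 18.1, 23.96 and 19.2 in monocyte/macrophage-like cells. In fibroblast-like cells at D2 0 of the 4 genes of this list past the floor were lower and 0 higher, against 14.6% and 13.3% of all genes.

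The inhibitors did not share one direction. Socs1, the feedback inhibitor of JAK kinases, was at 94.05, 31.1 and 57.8 CPM in fibroblast-like and 57.2, 57.9 and 69.02 in T/NK/ILC-like cells, and Socs3 at 319.8, 111 and 128 in fibroblast-like, 169, 560.4 and 485 in neutrophil-like, 155, 293 and 301 in monocyte/macrophage-like and 55.5, 143 and 132 in T/NK/ILC-like cells. Both were lower at D2 in fibroblast-like cells, and Socs3 was higher after injury in neutrophil-like cells (3.31 [2.74 to 4.04] at D2 and 2.86 [2.36 to 3.51] at D7). Ptpn2, a phosphatase that acts on JAK and STAT proteins, was at 61.7, 158 and 133 in neutrophil-like and 107, 84.8 and 87.4 in dendritic-like cells, and Ptpn6, another, at 249.99, 364 and 222 in neutrophil-like and 81.9, 174 and 124 CPM in dendritic-like cells. Pias1, an inhibitor of interferon signalling, was at 95.1, 51.8 and 49.5 and Trim24 at 44.5, 26.4 and 35.5 in fibroblast-like cells. Of the sensors and adaptors upstream of interferon, 3 of 6 past the floor were higher at D2 in dendritic-like cells, against 6.98% of all genes: Tmem173 (STING, a sensor of cytosolic DNA signals) at 36.2, 163 and 89.3, Ddx58 (RIG-I, a sensor of viral RNA) at 11.5, 40.2 and 22.5 and Myd88 (an adaptor of toll-like receptors) at 41.8, 92.9 and 67.95 CPM.

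A list of 46 other measured interferon-induced genes was counted by the same rule. In fibroblast-like cells 18 of 25 past the floor were lower at D2 and 14 of 25 at D7, with none higher, against 14.6% and 9.52% of all genes lower. Among them were genes of the Ifi200 family of DNA sensors, Ifi205 at 419, 90.1 and 96.9, Ifi204 at 305, 74.6 and 51.04 and Ifi203 at 125, 16.1 and 47.01 CPM, and Gbp6, at 29.97 in Sham, 0 UMIs at D2 (at least 19.3-fold lower, with 3 counts over the class as the limit) and 2.27 at D7. In endothelial-like cells 11 of 26 were lower at D2 and 4 of 25 at D7, none higher, against 9.62% and 5.91% of all genes lower, among them Tgtp2 (48.03, 8.57 and 6.33), a GTPase, and Cd274 (44.97, 5.0 and 18.3), which encodes PD-L1. In dendritic-like cells 7 of 29 were higher and 2 lower at D2, against 6.98% and 7.01% of all genes, with Ly6a at 12.9, 157 and 71.2 and Ms4a4c at 72.3, 373 and 197 CPM. In neutrophil-like cells 9 of 25 were higher and none lower at D7, not far from the 25% of all genes higher there (6.75% lower), with Isg20, a nuclease, at 72.8, 53.96 and 153 and Cd274 at 150.3, 112 and 359.

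Of the 10 genes of MHC class I antigen processing, which interferon gamma also induces, most were lower in fibroblast-like cells at D2 and none in dendritic-like cells. In fibroblast-like cells 7 of 8 were lower at D2 and 3 of 8 at D7, with none higher, against 14.6% and 9.52% of all genes lower, and their sum was 2291, 816 and 1197 CPM. B2m, the class I light chain, was at 769.8, 293 and 449.6, H2-K1 at 499, 166 and 232, Psmb9, an immunoproteasome subunit, at 54, 12.95 and 19.9, and Nlrc5, the class I transactivator, at 15.7 in Sham, 0 UMIs at D2 and 2.33 at D7. In endothelial-like cells 3 of 10 were lower at D2 and 0 of 10 at D7, against 9.62% and 5.91% of all genes. Their sum was still below Sham at both days, at 4437, 2898 and 3085 CPM, with median log2 ratios of -0.67 and -0.52. In dendritic-like cells none of 10 was lower or higher at D2, with sums of 4525, 5468 and 4866 CPM in Sham, D2 and D7. In adipocyte-like cells 7 of 8 were higher at D7, beside the 30.5% of all genes of that class. The Sham and D7 cells of that class may differ in type.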

How the data were processed

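Single cells of femoral arteries were measured in 3 libraries of 6 pooled mice each. The deposited matrices hold raw UMI counts per gene and cell barcode, made with Cell Ranger, version 7.1.0 per the file headers and 7.2.0 per the submitters' processing notes, which also name Seurat 5.0.1 and the build mm10. Sham had 7757 barcodes and 39756684 UMIs, D2 11690 and 98260210, and D7 11574 and 100571340.

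Barcodes under 300 genes or 500 UMIs, or over 15% mitochondrial UMIs, were dropped, and doublets called by Scrublet at an expected rate of 8% (0.859%, 4.12% and 2.82%) were removed. Counts scaled to 10000 per cell were clustered with scanpy 1.11.5 and leidenalg 0.10.2 (2000 variable genes, 30 principal components, 15 neighbours, resolution 1) without 85 interferon-induced genes. The 30 clusters were scored on 197 markers of 19 cell types. A cluster was named where its score passed 0.3 of the highest score of that type, at least 3 markers were found in 10% of its cells and its top 10 genes did not speak for another type, which left 4 unnamed, and classes compared between libraries can hold different clusters. The rule of size and the ratio interval were checked on simulated counts. Those counts were drawn independently, as the interval assumes, with changes larger than 2-fold in genes well past the floor. The check therefore does not cover UMIs that gather in few cells, or genes near the floor.

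UMIs were summed by class and library and scaled to CPM. Levels have exact Poisson intervals, ratios conditional binomial intervals and shares Clopper-Pearson intervals. No test was possible with 1 library per group, and the cells of the 6 mice are not told apart. Levels are given in each class compared for 13 genes (Isg15, Ifit1, Ifit3, Rsad2, Irf7, Stat2, Ifitm3, Gbp2, Gbp4, Iigp1, Cxcl9, Cxcl10, Irf1), and the 3 highest and 3 lowest ratios (ranked on CPM + 1, with any gene that the plain ratio adds) among members past the floor are named in each comparison, as are ligands, receptors, signal factors and inhibitors, and up to 4 other pathway genes per class with the largest ratios. Some further pathway genes were named after their values were seen. The values of 1 signal factor are not reported here. Members and lists were chosen with earlier results of these data known. Percentages over all genes count genes past the same floor in the same class, and medians over all genes use those with a mean of at least 10 CPM. Motifs were searched in RefSeq promoters of GRCm38.p6. Alternatives tried were stricter cells, doublets kept, members clustered, another resolution, means over cells, free RNA subtracted (estimated from 18 genes), a floor of 50 CPM and thinning to 2000 UMIs.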

Additional observations from a re-analysis of the deposited data

Results flagged for a closer look

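The summed level of the 12 gamma-like genes differed in direction between classes under the same comparison of D7 with Sham. In fibroblast-like cells the ratio was 0.346 (0.338 to 0.354) and in neutrophil-like cells 2.7 (2.32 to 3.15), with intervals for counting error only. The difference between the classes was not tested, since each library was 1 pool of mice. The fibroblast-like cells of Sham and D7 lay mainly in different clusters, and the neutrophil-like class of Sham held 148 cells.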

How the results depend on the processing

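No paired analysis was possible because each group is 1 library. Counts below are of members of both lists together, D2 or D7 against Sham, and for none of these differences was the cause tested. With stricter cells (500 genes and 1000 UMIs or more), 28 of 34 counts stayed within 1.5 times. The lower counts became 2 (from 4) in smooth-muscle-like cells at D7, 4 (from 9) in dendritic-like cells at D7 and 0 (from 1) in adipocyte-like cells, and the higher counts 1 (from 0) in endothelial-like cells at D2, 4 (from 2) in dendritic-like cells at D7 and 2 (from 1) in T/NK/ILC-like cells at D2. With doublets kept, 24 of 34 did. Lower counts became 2 (from 4) in smooth-muscle-like, 1 (from 0) in neutrophil-like cells at D2, 0 (from 2) in B-like cells at D2 and 0 (from 1) in adipocyte-like cells. Higher counts became 1 (from 0) in endothelial-like cells at D2 and 1 at D7, 0 (from 1) in monocyte/macrophage-like cells at D2, 4 and 2 (from 1 and 1) in T/NK/ILC-like cells at D2 and D7 and 4 (from 1) in B-like cells at D2.

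With the members among the genes clustered, higher counts became 0 (from 1) in monocyte/macrophage-like and 0 (from 1) in B-like cells at D2, and in B-like cells at D7 1 (from 2) was higher and 1 (from 0) lower. At resolution 2 lower counts became 2 (from 4) in smooth-muscle-like cells, 8 (from 5) in monocyte/macrophage-like and 4 (from 9) in dendritic-like cells at D7, and higher counts 0 (from 1) in monocyte/macrophage-like cells at D2, 4 (from 2) in dendritic-like cells at D7 and 2 (from 1) in T/NK/ILC-like cells at D2. As means over cells, higher counts became 1 (from 0) in smooth-muscle-like cells, 4 (from 1) and 3 (from 1) in monocyte/macrophage-like cells at D2 and D7, 0 (from 1) and 2 (from 1) in T/NK/ILC-like cells at D2 and D7 and 1 (from 2) in B-like cells at D7. Lower counts became 3 (from 5) in monocyte/macrophage-like and 2 (from 0) in B-like cells at D7 and 0 (from 1) in adipocyte-like cells. With free RNA subtracted, higher counts became 2 (from 1) in T/NK/ILC-like cells at D2, 2 (from 1) there at D7 and 2 (from 1) in B-like cells at D2, and 2 (from 0) were lower in B-like cells at D7.

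With a floor of 50 CPM, which fewer members reach, lower counts became 7 (from 19) and 5 (from 13) in fibroblast-like cells at D2 and D7, 0 (from 4) in smooth-muscle-like cells, 7 (from 11) in endothelial-like cells at D7, 2 (from 7) in lymphatic-endothelial-like cells and 4 (from 8) and 4 (from 9) in dendritic-like cells at D2 and D7. Higher counts became 0 (from 2) in lymphatic-endothelial-like cells, 0 (from 1) and 0 (from 1) in monocyte/macrophage-like cells at D2 and D7, 1 (from 4) and 5 (from 13) in neutrophil-like cells, 1 (from 6) in dendritic-like and 0 (from 1) in T/NK/ILC-like cells at D2, and 0 (from 1) and 1 (from 2) in B-like cells. With every cluster in its best-scoring class, an alternative chosen after seeing the data, monocyte/macrophage-like cells had 0 higher (from 1) and 8 lower (from 4) at D2 and 9 lower (from 5) at D7.

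The summed type I-like ratio to Sham depended on Ifitm3, Bst2 and Ifi27l2a. Without them it reversed in smooth-muscle-like cells at D7, from 1.38 to 0.762. In adipocyte-like cells, whose Sham and D7 cells may differ in type, it reversed from 3.94 to 0.660. At D2 and D7 it moved from 0.628 to 0.314 and from 0.583 to 0.642 in fibroblast-like cells, from 0.960 to 0.667 and from 0.962 to 0.563 in endothelial-like cells, from 0.675 to 0.990 and from 0.551 to 0.813 in monocyte/macrophage-like cells, from 2.10 to 1.59 and from 1.63 to 1.52 in dendritic-like cells, from 1.28 to 1.41 and from 1.73 to 1.64 in T/NK/ILC-like cells and from 0.687 to 1.09 and from 0.996 to 1.37 in B-like cells. At D7 it moved from 1.47 to 1.18 in lymphatic-endothelial-like and from 1.45 to 1.87 in neutrophil-like cells. Cells numbered 89 and 87 at D2 in the fibroblast-like and endothelial-like classes, so genes with few transcripts there could not be set apart from Sham unless they differed widely, and depth limits the ligands most.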
